A study of Mus musculus with 8 samples.

Results

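A set of 10 genes known as transcriptional targets of p53, those linked to cell cycle arrest and the sestrins, was followed in mouse embryonic kidneys in which Mdm4 had been removed. They were Cdkn1a, Ccng1, Zmat3, Btg2, Plk2, Ppm1d, Sesn1, Sesn2, Gadd45a and Sfn, taken by the RefSeq accession of each non-control probe, which gave 13 of the 56605 probes and 10 of the 22911 named genes on the array. Whole kidneys of embryos at embryonic day 14.5 were either wild type or conditional mutants, in which a Hoxb7Cre transgene mediated the knockout of Mdm4. That transgene is active in the ureteric bud and its collecting duct descendants, so cells of the nephron and stroma keep Mdm4. In all, 4 wild-type and 4 mutant RNAs were hybridised as 4 pairs on 2-colour Agilent arrays, with every pair hybridised again after a dye swap, which made 8 arrays. Whether an RNA stands for a single embryo or a pool is not stated in the labels.

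p53 is a transcription factor that is held in check by Mdm2 and Mdm4. When it is released, it binds response elements made of a pair of half-sites and raises transcription of genes that stop the cell cycle, repair DNA, change metabolism or start apoptosis. The arrest arm works through inhibitors of cyclin-dependent kinases and through proteins that act on mitosis and mRNA decay, and the sestrins restrain the growth kinase complex mTORC1. Some targets, such as Ccng1 and Ppm1d, encode feedback regulators that turn p53 down again.

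The RefSeq promoter table (GRCm38.p6, 250 bases before to 50 after a start) held 11 windows for 9 of the 10 genes, and Zmat3 was not matched. They were searched for the p53 half-site consensus, a palindrome of 10 letters, so that both strands are read at once, and for a full site of 2 half-sites up to 13 bases apart with the central letters kept and at most 2 mismatches in 20. An exact half-site lay in 8.36% of all 32851 windows and a full site in 2.12%. A match is a description of the letters only. The 3 windows printed here come from Cdkn1a, Ccng1 and Sesn1. Their mean ratios were the second highest of the 10 genes, the highest and near 0. Capitals mark the full site with the shortest spacer in Cdkn1a and Sesn1 and the exact half-site in Ccng1.
Cdkn1a, chr17:29090729-29091028, plus strand: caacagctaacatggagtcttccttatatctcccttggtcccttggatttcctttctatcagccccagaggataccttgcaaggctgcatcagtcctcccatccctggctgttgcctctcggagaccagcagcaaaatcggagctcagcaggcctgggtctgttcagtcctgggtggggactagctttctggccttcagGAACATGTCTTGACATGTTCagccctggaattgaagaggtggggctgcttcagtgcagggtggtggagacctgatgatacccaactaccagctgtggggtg
Ccng1, chr11:40755237-40755536, minus strand: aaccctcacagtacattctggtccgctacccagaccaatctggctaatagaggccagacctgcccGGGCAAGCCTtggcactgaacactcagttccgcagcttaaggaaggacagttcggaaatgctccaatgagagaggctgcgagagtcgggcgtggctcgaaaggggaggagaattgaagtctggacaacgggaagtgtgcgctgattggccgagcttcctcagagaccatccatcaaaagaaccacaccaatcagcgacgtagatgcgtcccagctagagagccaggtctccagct
Sesn1, chr10:41887189-41887488, plus strand: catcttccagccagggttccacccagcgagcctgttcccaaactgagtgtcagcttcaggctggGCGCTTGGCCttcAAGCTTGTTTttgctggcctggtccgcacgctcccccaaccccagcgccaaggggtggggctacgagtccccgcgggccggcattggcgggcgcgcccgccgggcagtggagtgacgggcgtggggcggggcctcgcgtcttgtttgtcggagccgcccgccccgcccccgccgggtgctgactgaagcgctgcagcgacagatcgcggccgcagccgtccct

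In the Cdkn1a window the full site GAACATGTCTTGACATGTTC had no spacer and 1 mismatch and began at position -51 relative to the annotated start. It shares its first half-site with a second match, which has a spacer of 12 bases and 0 mismatches. The other Cdkn1a window, at chr17:29093519-29093818, held no half-site match. Ccng1 held 1 exact half-site at -185 and no full site by this definition. The Sesn1 match had a spacer of 3 bases and 2 mismatches, and the other Sesn1 window had none. Among the other genes, Ppm1d and Gadd45a each held 1 exact half-site, at -132 and -40, and the windows of Btg2, Plk2, Sesn2 and Sfn held none. A full site was thus found in 1 gene with a high ratio, Cdkn1a, and in 1 with a ratio near 0, Sesn1. A link between sites and ratios was not tested. Which Cdkn1a window belongs to which of the transcripts on the array was not settled.

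Each array held 62976 spots, and per channel 60.7% to 70.2% of the non-control spots stood well above background, with 0 saturated. The precision is set by the 4 pairs, and p-values measure the spread between them, which may be partly technical. All 10 genes passed the filter on dim probes, with 8 of 8 channels of their brightest probe well above background in both genotypes. The listed markers of nephron progenitors, podocytes, stroma and the ureteric tip and trunk all passed the filter too. Mdm4 itself gave log2 ratios of mutant over wild type of -0.03, -0.06, -0.28 and -0.35 in pairs 1 to 4 on the brightest of its 4 probes (mean -0.18 ± 0.07, SE). That probe was at -0.00062 where Cy5 carried the mutant RNA and at -0.36 where Cy3 did, and the other 3 probes had means of -0.098, -0.14 and -0.11, with mixed signs in pairs 1 and 2. The position of these probes against the deleted stretch was not analysed here, and the values are no check of genotype. Y-linked genes differed within the pairs, with list means of 2.76, 1.31, -1.64 and 2.83, which places pair 3 opposite to the other pairs.

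Setting mutant against wild-type kidneys addresses how transcript levels differ when Mdm4 is lost from the ureteric lineage. Ccng1, Cdkn1a, Zmat3 and Btg2 were higher in the mutant in every pair, the first at 2.06-fold, the others at 1.94-fold, 1.55-fold and 1.19-fold. The other 6 genes, Plk2, Gadd45a, Sesn2, Ppm1d, Sesn1 and Sfn, had mean ratios from -0.02 to 0.22 on the log2 scale, and none of them kept 1 sign in all 4 pairs. In whole-kidney RNA, a change in the number of cells of a type and a change of RNA per cell cannot be told apart. No gene passed limma's test at an adjusted p of 0.05, where 0 of 16013 genes were called (0%). At an unadjusted p under 0.05, limma had 1699 genes in either direction (10.6%), and 4 of the 10 genes were among the 7.01% that were higher, 0 among the 3.6% that were lower. Mean ratios lay above 0 for 9 of the 10 genes and for 53.9% of all genes.

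**Figure D1:**
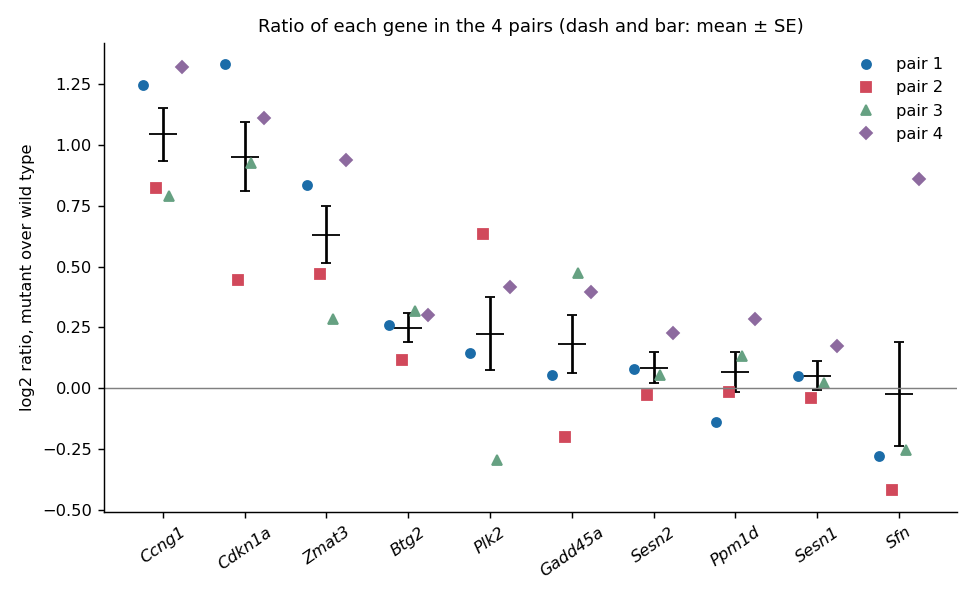
Log2 ratio of mutant over wild type (vertical axis) of each of the 10 genes in pairs 1 to 4 (coloured points, both arrays of a pair averaged), with the mean and its standard error from limma (black, n = 4 pairs). Ccng1, Cdkn1a, Zmat3 and Btg2 lie above 0 in all 4 pairs, and Sfn is at 0.86 in pair 4 and below 0 in the other 3.

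Among the inhibitors of the cell cycle engine, Cdkn1a encodes p21, which blocks cyclin-dependent kinases and binds the replication clamp PCNA. The log2 ratio of its brighter probe was 1.33, 0.44, 0.92 and 1.11 in pairs 1 to 4. All 4 mutant RNAs thus lay above their partners, by least in pair 2. The normalised log2 intensity of that probe was 9.71, 10.26, 9.67 and 9.49 in the wild-type RNAs of pairs 1 to 4, and 11.04, 10.704, 10.60 and 10.60 in the mutant RNAs. The wild-type RNA of pair 2 was the brightest of its genotype, whereas the mutant RNAs were closer together, and the groups did not overlap. The mean ratio was 0.95 ± 0.14 (SE, n = 4; limma adjusted p = 0.232), higher on 8 of 8 arrays.

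A second Cdkn1a probe, assigned to another RefSeq transcript of the gene, gave ratios of 1.67, 1.23, 0.96 and 1.38, with a mean of 1.31 ± 0.30 (SD, n = 4). It was dim, and stood well above background in 8 of 8 mutant channels but only 3 of 8 wild-type ones. It passed the filter only through the mutant, so its ratio is given as a value without a test.

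Ccng1, which encodes cyclin G1, a regulator that brings a phosphatase to Mdm2, had the smallest p of the 10 genes. Its ratios were 1.25, 0.82, 0.79 and 1.32 in pairs 1 to 4. Its level was 10.26, 10.23, 10.35 and 10.10 in the wild-type RNAs and 11.50, 11.05, 11.14 and 11.42 in the mutant RNAs. The wild-type RNAs lay within a narrow range (10.24 ± 0.10, SD), and every mutant RNA was brighter than every wild-type RNA. The mean ratio was 1.04 ± 0.11 (SE, n = 4; limma adjusted p = 0.121), the rank being 21 of 16013 genes by mean ratio and 8 by p.

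Zmat3 encodes a zinc finger protein that binds RNA and acts on splicing and mRNA stability. Its ratios were 0.84, 0.47, 0.28 and 0.94, so that pair 3 was lowest and pair 4 highest. Its wild-type levels were 10.18, 10.34, 10.41 and 10.23, and its mutant levels 11.02, 10.81, 10.696 and 11.17. Here too the genotypes did not overlap. The mean ratio was 0.63 ± 0.12 (SE, n = 4; limma adjusted p = 0.304), higher on 8 of 8 arrays.

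Levels of all 4 mutant RNAs lay above all 4 wild-type RNAs for these 3 genes, against 3.3% of all genes tested. Of the 10 genes, 4 were higher in all 4 pairs, against 12.1% of all genes, and 0 were lower in all 4 pairs, against 7.84%. The same 4 were higher on all 8 arrays, against 3.35%. Ratios reached 1.5-fold in 3 of the 10, against 0.45% of all genes, and 2-fold in 1, against 0.137%. Because the genes were chosen with earlier results of these data known, these shares are a description.

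**Figure D2:**
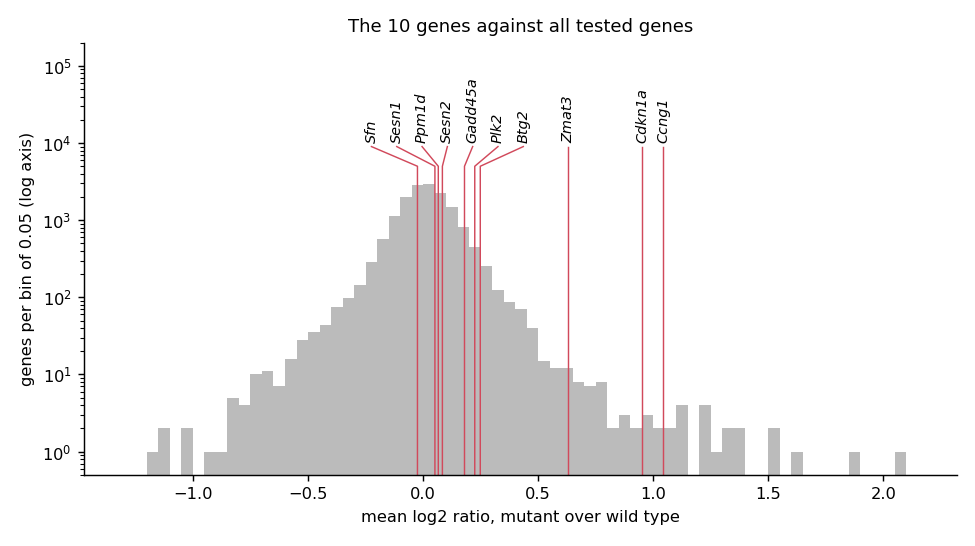
Number of genes (vertical log axis) by mean log2 ratio of mutant over wild type (horizontal axis, bins of 0.05) for the 16013 genes tested, with the 10 genes marked by red lines. Ccng1, Cdkn1a and Zmat3 lie at 1.04, 0.95 and 0.63 in the sparse right tail, while Sesn1, Ppm1d and Sesn2 lie inside the bulk.

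The calls depended on the fit. When limma took the 8 arrays singly, with a term for the dye and pairs as random blocks, 45 of 15997 genes were called (0.281%). Among them were Ccng1 (limma adjusted p = 0.00286), Cdkn1a (0.0264) and Zmat3 (0.0353). The 8 arrays hold only 4 pairs of RNAs, and this fit used the same correlation within pairs, 0.586, for every gene. Its adjusted p-values therefore rest in part on repeat hybridisations of the same RNAs. With median centring in place of loess, 42 genes were called (0.262%), including Ccng1 (limma adjusted p = 0.00878), Cdkn1a (0.0176) and Zmat3 (0.0290), but under this centring the all-gene median was 0.14 rather than 0.01. Once each pair was then centred on the tested genes, 0 were called, although the ratios of the 3 genes were 1.06, 0.96 and 0.64.

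Btg2 encodes an antiproliferative protein that promotes the shortening of mRNA tails. Its ratios were small but alike, at 0.26, 0.12, 0.32 and 0.30 in pairs 1 to 4 on the brighter probe. The mean was 0.25 ± 0.06 (SE, n = 4; limma adjusted p = 0.397). The levels of the genotypes overlapped, since the wild-type RNAs ran from 9.75 to 10.18 and the mutant RNAs from 10.07 to 10.44. Its other probe gave 0.25, -0.01, 0.22 and 0.04, a mean of 0.12 ± 0.13 (SD), and was higher on 6 of 8 arrays. The probes therefore disagreed on whether every pair was higher.

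Gadd45a encodes a small stress protein that binds PCNA and opposes progress through the cell cycle. Its ratios were 0.05, -0.20, 0.47 and 0.40, mean 0.18 ± 0.12 (SE, limma adjusted p = 0.608). The spread came mostly from the wild-type RNAs, at 10.06, 10.16, 9.54 and 9.76, while the mutant RNAs were at 10.11, 9.96, 10.01 and 10.16. Plk2, a polo-like kinase of centriole duplication, had ratios of 0.15, 0.63, -0.30 and 0.42, mean 0.22 ± 0.15 (SE, limma adjusted p = 0.605). Its level differed widely between RNAs of 1 genotype, from 9.66 to 10.58 in wild type and from 10.14 to 10.95 in mutant. Leaving out 1 pair moved Gadd45a to 0.083 (without pair 3) or 0.31 (without pair 2), and Plk2 to 0.088 (without pair 2) or 0.40 (without pair 3). For neither gene was the mean difference larger than the spread of the pairs (SD 0.31 and 0.40).

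Sfn encodes 14-3-3 sigma, an epithelial protein that can hold cyclin-dependent kinase 1 in the cytoplasm. Its ratios were -0.28, -0.42, -0.26 and 0.86, mean -0.02 ± 0.21 (SE, limma adjusted p = 0.975). Pair 4 stood apart on both arrays, at 0.91 with mutant RNA in Cy5 and 0.81 in Cy3. In that pair the wild-type RNA was the dimmest of its genotype (9.95, others 10.39 to 10.79) and the mutant RNA the brightest (10.81, others 10.09 to 10.51). Without pair 4 the mean was -0.32, without pair 1, 2 or 3 it lay between 0.05 and 0.11, and with median centring it was 0.12.

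The sestrins Sesn1 and Sesn2 encode stress proteins that restrain mTORC1 through the GATOR complexes. Sesn1 was at 0.05, -0.04, 0.02 and 0.17 in pairs 1 to 4, mean 0.05 ± 0.06 (SE, limma adjusted p = 0.762). Sesn2 was at 0.08, -0.03, 0.06 and 0.23, mean 0.08 ± 0.06 (SE, limma adjusted p = 0.646). Both had their highest ratio in pair 4 and their only negative one in pair 2, and without pair 4 their means were 0.010 and 0.036. The levels of Sesn1 were among the most even of the set, with 11.88 ± 0.07 in wild type and 11.93 ± 0.07 in mutant (SD, n = 4), whereas both Sesn2 RNAs of pair 4 (11.37 and 11.60) were dimmer than those of the other pairs. Ppm1d, which encodes the phosphatase Wip1 that switches off p53 signalling, was at -0.14, -0.02, 0.13 and 0.29 on the brighter probe, mean 0.07 ± 0.08 (SE, limma adjusted p = 0.778), and had a mean of -0.0068 on its other probe. These 3 genes thus gave no difference beyond the spread of the pairs.

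**Figure D3:**
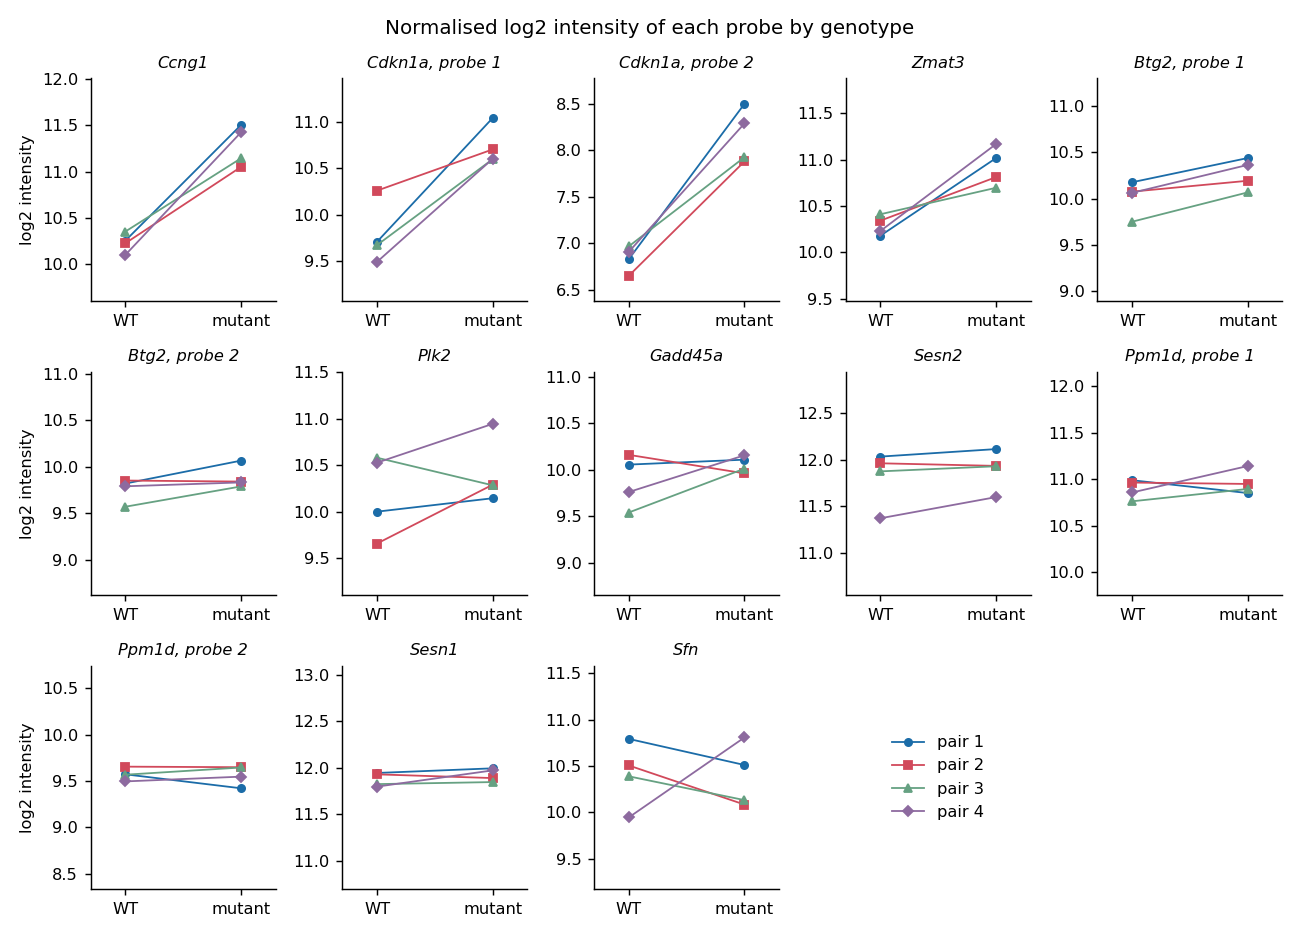
Normalised log2 intensity (vertical axis, each panel spanning the same range) of the 13 probes in the wild-type and mutant RNA of each pair, both arrays averaged, with lines joining the RNAs of a pair; probes of different panels are not compared. Lines slope upward in all 4 pairs for Ccng1, the brighter Cdkn1a probe and Zmat3 with no overlap between genotypes; the dimmer Cdkn1a probe was well above background in only 3 of 8 wild-type channels. For Sfn, Plk2 and Gadd45a, among others, lines slope upward in some pairs and downward in others.

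Ordered by mean ratio, the genes ran Ccng1, Cdkn1a, Zmat3, Btg2, Plk2, Gadd45a, Sesn2, Ppm1d, Sesn1 and Sfn. Because the order was set by these same means, every step is above 0 by construction, and the steps were not tested. Only 2 of the 9 steps between neighbours exceeded the spread of the pairs. Cdkn1a was above Zmat3 by 0.32 ± 0.30 (SD, n = 4) and in 3 of 4 pairs, and Zmat3 was above Btg2 by 0.38 ± 0.30, also in 3 of 4. Ccng1 and Cdkn1a differed by 0.09 ± 0.24, with either gene higher in 2 pairs. From Btg2 down, each step was smaller than its SD. The mean over all 10 genes was 0.36, 0.18, 0.24 and 0.60 in pairs 1 to 4, and their median ratio was 0.20, against 0.01 over all genes tested.

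Dye orientation, which coincided with where on the slide an array lay, moved several of these values. Sesn1 was at -0.04 where Cy5 carried the mutant RNA and at 0.14 where Cy3 did, Sesn2 at -0.03 and 0.20, and Btg2 at 0.15 and 0.34. In these 3 genes the difference between orientations passed limma's test of the dye coefficient (adjusted p = 0.0375, 0.0279 and 0.0319), as it did in 30.8% of all genes tested. For Ccng1 the orientations gave 1.00 and 1.09, for Cdkn1a 0.84 and 1.07, and for Zmat3 0.54 and 0.73, differences that did not pass (dye adjusted p from 0.174 to 0.579). Their ratios were above 0 in both orientations in every pair.

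**Figure D4:**
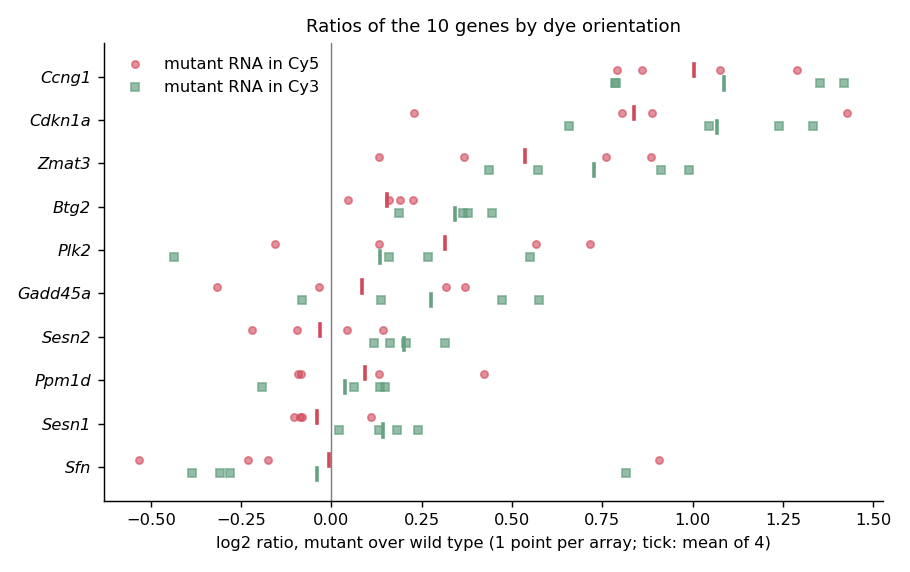
Log2 ratio of mutant over wild type (horizontal axis) on each array, with mutant RNA in Cy5 (red circles) or Cy3 (green squares) and the mean of the 4 arrays as a tick, for the 10 genes. The means of Sesn1 and Sesn2 lie on opposite sides of 0 in the orientations, while all arrays lie above 0 for Ccng1, Cdkn1a, Zmat3 and Btg2.

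Relatives from the same families had lower mean ratios than the member in every family but those of Ppm1d and Sfn. These differences were not tested, and Plk5 at 0.19 ± 0.07 lay close to Plk2 at 0.22 ± 0.15 (SE). Of 36 relatives 35 were tested, and 0 were called over all genes. Their median was -0.0078 (range -0.17 to 0.47), with 7 higher and 5 lower in all 4 pairs. With median centring it was 0.14, the same as that of all genes. Beside Cdkn1a, the inhibitor genes Cdkn1b and Cdkn1c were at -0.08 ± 0.06 and 0.17 ± 0.06 (SE). Beside Ccng1, Ccng2 was at 0.14 ± 0.05, above 0 in all 4 pairs but higher on 4 of 8 arrays, and Ccni was at 0.03 ± 0.07. The exception was Zmat4, with 0.66, 0.64, 0.04 and 0.56 in pairs 1 to 4 (mean 0.47 ± 0.11, SE, limma adjusted p = 0.397), whereas Zmat1, Zmat2 and Zmat5 were at 0.11, -0.16 and -0.12. Zmat4 and Zmat3 were both lowest in pair 3.

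Beside Btg2, the related genes Btg1, Btg3, Tob1 and Tob2 were at 0.11, 0.04, -0.06 and -0.0073, and Btg4 was not tested. Beside Plk2, the mitotic kinase gene Plk1 was at -0.13, Plk3 at -0.10, the centriole kinase gene Plk4 at 0.13 and Plk5 at 0.19. Plk5 was higher in all 4 pairs and on 8 arrays, Plk2 in 3 pairs and on 6 arrays. Sesn3 was at -0.04 ± 0.07, and Gadd45b and Gadd45g at -0.06 ± 0.11 and -0.05 ± 0.05. The 10 phosphatase relatives of Ppm1d ran from -0.15 (Ppm1k) to 0.16 (Ppm1h), with 6 of them below Ppm1d, and the 6 14-3-3 relatives of Sfn from -0.17 (Ywhaq) to 0.11 (Ywhae). Of the relatives that lay in the same family as Ccng1, Cdkn1a or Zmat3, none reached its member's mean.

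**Figure D5:**
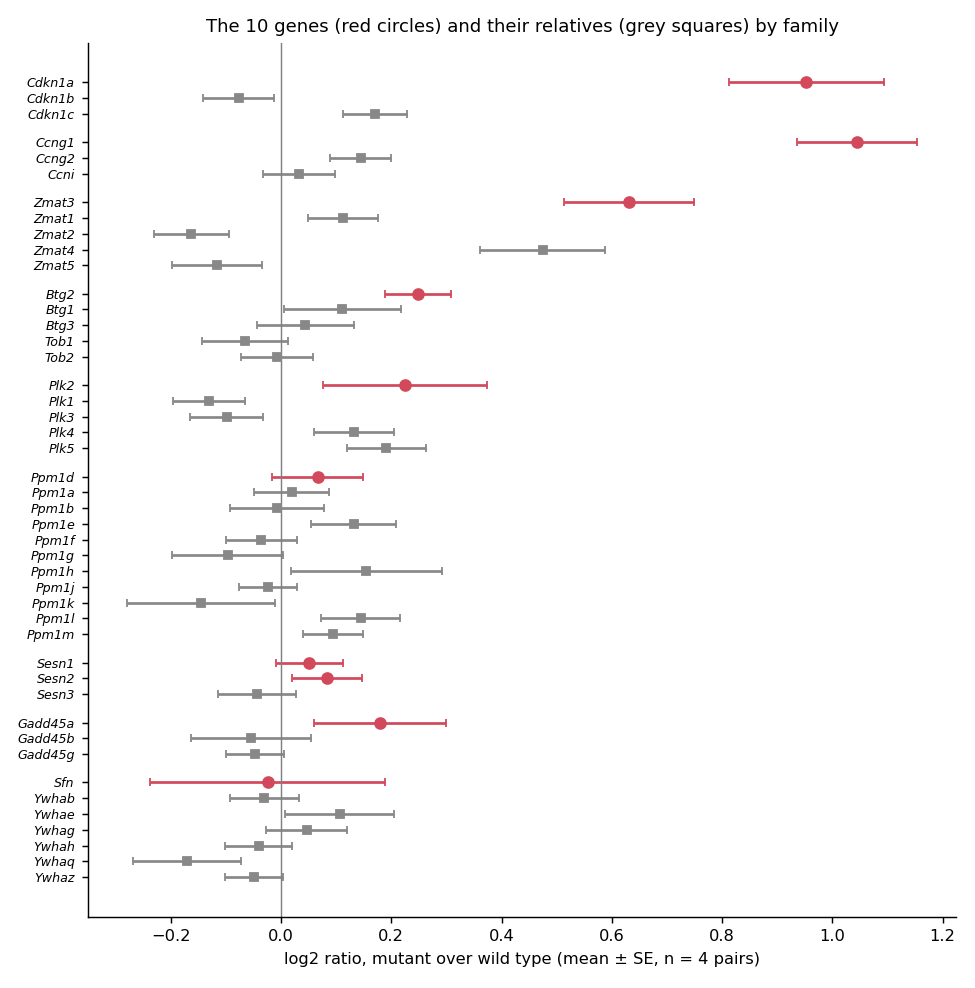
Mean log2 ratio of mutant over wild type with its standard error from limma (horizontal axis, n = 4 pairs) for the 10 genes (red circles) and their 35 tested relatives (grey squares), grouped by family. Ccng1 and Cdkn1a at 1.04 and 0.95 stand apart from their relatives at 0.17 or less, and Zmat4 at 0.47 is the relative with the largest ratio.

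Other p53 targets on a list of 51 genes, without the 10, gave 48 tested genes, of which 18 were higher and 2 lower in all 4 pairs (12.1% and 7.84% of all genes) and 0 passed over all genes. Their median was 0.10. By the smallest p they were Zfp365 at 0.75 ± 0.06, the receptor gene Eda2r at 1.15 ± 0.10 and the stress cytokine gene Gdf15 at 1.23 ± 0.13. Likeness to Ccng1 was ranked by the root mean square difference over the 4 pair values, leaving out the 10 genes, accessions, clone names and predicted genes. The closest of the rest were Eda2r (0.11), Gdf15 (0.22), Pmaip1 (0.24), Plcxd3 (0.29) and Ano3 (0.31). Eda2r was at 1.38, 0.95, 0.90 and 1.35 in pairs 1 to 4 against 1.25, 0.82, 0.79 and 1.32 for Ccng1. Of the genes that bear on p53 itself, Trp53 was at -0.22 ± 0.07 with opposite signs in the dye orientations, and Mdm2 at 0.03 ± 0.07 on its brighter and -0.12 on its other probe.

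Genes that p21 is known to repress through the E2F and DREAM complexes showed small ratios. Of 38 tested, 0 were higher and 11 lower in all 4 pairs, 0 were called and the median was -0.04. The shares of all genes were 12.1% higher and 7.84% lower in all pairs, with a median of 0.01. Median centring turned the sign of the list median to 0.12 as it moved the median of all genes to 0.14. Under it 2 of the 38 were higher in all pairs, against 31% of all genes. None of the 11 stayed lower in all pairs, the count being 0. By the smallest p they were Uhrf1 at -0.21 ± 0.06, the mitotic cyclin gene Ccnb1 at -0.18 ± 0.06 and Cdca8 at -0.15 ± 0.05. Of the G1 cyclins, their kinases, other inhibitors and pocket proteins, 13 were tested, 3 were higher and 2 lower in all 4 pairs and 0 were called. The pocket protein gene Rbl2 was at 0.18, 0.18, 0.23 and 0.21 in pairs 1 to 4, mean 0.20 ± 0.05 (SE, limma adjusted p = 0.397), and the inhibitor genes Cdkn2c and Cdkn2b were at 0.19 ± 0.07 and 0.26 ± 0.09.

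A list of 22 genes of the sestrin and mTORC1 pathway had a median of 0.01. Of these, 2 were higher and 1 lower in all 4 pairs and 0 were called. Mtor, which encodes the kinase itself, was at 0.23, 0.24, -0.01 and 0.22, mean 0.17 ± 0.07 (SE, limma adjusted p = 0.459). Seh1l and Nfe2l2 were at 0.19 ± 0.08 and 0.14 ± 0.07. With median centring all 22 were above 0, with a median of 0.18, against 0.14 for all genes. Under that centring all 35 tested relatives and 34 of the 38 p21-repressed genes were above 0 too.

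Markers of the cells that carry the Cre transgene varied across the pairs as well. The mean of 6 ureteric tip genes was -0.63, -0.07, -0.16 and -0.69 in pairs 1 to 4, and that of 8 trunk and collecting duct genes -0.64, -0.36, 0.06 and -0.49. Ccng1, Cdkn1a and Zmat3 had their highest ratios in pairs 1 and 4, where both lists were lowest. The stroma and macrophage lists, given next, were highest in the same pairs. The 6 stroma genes had list means of 0.46, 0.43, 0.23 and 0.52, the 6 macrophage genes 0.41, 0.06, 0.12 and 0.46, the 5 podocyte genes 0.31, 0.02, 0.69 and 0.61, and the 5 urothelium genes tested -0.19, -0.22, 0.15 and -0.13. Nephron progenitor genes were at 0.21, -0.0074, -0.30 and -0.02, endothelial genes at 0.09, 0.15, 0.05 and -0.07 and red blood cell genes at 0.23, -0.27, 0.03 and 0.05. The part of cell composition, or of the sex difference within pairs, in these ratios was not tested.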

How the data were processed

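Total RNA of whole kidneys was measured in 4 pairs of 1 wild-type and 1 mutant RNA on 8 2-colour arrays. Per the file headers, the scanner software was Agilent Feature Extraction 10.7.3.1 and the array design refers to mm9, whereas the submitters' processing notes name version 8.5.1.1. The intensity values used, deposited as the scanner software wrote them, are medians over the pixels of a spot and over those around it. The deposited log10 ratios (Cy5 over Cy3, per the file headers) of the series table differed from the scanner files by at most 0.005 and served as an alternative only, as did the deposited processed intensities. The table's columns had a median of 0 and were not turned for the dye swap. All arrays lay on 1 slide.

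With limma 3.58.1 in R 4.3.3, background was corrected by normexp (offset 50) and each array was loess-normalised; 3671 control spots and 95 to 156 outlier spots per array were not used. No spot of the 10 genes was an outlier. Ratios were turned to mutant over wild type and the 2 arrays of a pair averaged (n = 4 pairs). Arrays of a pair hold the same RNAs, and their residual correlation was 0.586. Probes well above background in at least 6 of 8 channels of a genotype were kept (34594), and 32994 of 56605 probes were named through RefSeq accessions (GRCm38.p6). Each of 16013 genes was represented by its brightest kept probe and tested against 0 with lmFit and eBayes, two-sided, with Benjamini-Hochberg adjustment over all genes. Levels by genotype came from loess and Aquantile normalisation.

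The 10 genes and all lists were chosen with earlier results of these data known. Named were the 10 genes, Mdm4, Trp53 and Mdm2, all relatives and up to 3 genes per other list with the smallest p. Also named were the 5 genes most like Ccng1, ranked without accessions, clone names and predicted genes. In a test on simulated data for this comparison (16013 genes), log2 changes of 0.5 were called in 38 of 61 genes. Changes of 1 were called in 73 of 78 and changes of 2 in 59 of 61, beside 6 false calls. The simulated noise was normal and independent between genes, and many changes were planted at once, which loosens the adjusted threshold. The main fit of the data called 0 genes and missed Ccng1 at 1.04, so these shares do not give the power of this comparison.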

Additional observations from a re-analysis of the deposited data

Results flagged for a closer look

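For each named gene, the highest or lowest pair was compared with the other 3 by its gap relative to the range of the 4 values. In 11 of 94 genes the gap exceeded Dixon's 95% critical value, where chance gives about 1 in 20 for independent, unselected normal values. The 94 genes share the same 4 pairs, and some were picked by p or by likeness to Ccng1. The count can therefore not be read as an excess over chance. Among the 10 genes the critical value was exceeded in Sfn alone, at 0.86 in pair 4 against -0.42 to -0.26 in the others. Pair 4 also stood apart for Ppm1l (0.36, others 0.05 to 0.10), Plk1 (-0.31, others -0.08 to -0.06), Ywhaq (-0.53, others -0.07 to -0.03) and Ppm1g (-0.47, others 0.0093 to 0.06).

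Pair 3 stood apart for Zmat4 (0.041, others 0.56 to 0.66), Ccnb1 (-0.28, others -0.15 to -0.13), Mtor (-0.012, others 0.22 to 0.24) and Plcxd3 (0.46, others 0.92 to 0.98). Pair 1 did so for Zfp365 (0.92, others 0.69 to 0.70) and Ppm1m (0.0082, others 0.12 to 0.13).

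The ratio differed between the dye orientations in 3 of the 10 genes by limma's dye coefficient, as it did in 30.8% of all genes, so that the count is near the share of the whole array. With mutant RNA in Cy5 it was lower than with it in Cy3 in Btg2 (difference -0.19), Sesn1 (difference -0.18) and Sesn2 (difference -0.23).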

How the results depend on the processing

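Over 16 alternatives, Ccng1 ranged from 0.95 to 1.199, Cdkn1a from 0.83 to 1.13, Zmat3 from 0.53 to 0.78 and Btg2 from 0.15 to 0.38. The 1.13 of Cdkn1a came with the median of its probes, which takes in the probe that passed the filter only through the mutant. Its next highest value was 1.12, without pair 2. Plk2 (0.088 to 0.40) and Gadd45a (0.083 to 0.31) kept their sign in all 16, with values that moved by over 1.5 times. The number of genes called was 0 except with median centring (42) and with all 8 arrays, a dye coefficient and the replicate block (45), and both settings called 3 of the 10 genes, Ccng1, Cdkn1a and Zmat3. The block changed no other call among the 10. The number of the 10 higher in every pair was 4 to 7 with 1 pair left out (7 without pair 2) and 6 with median centring. That of the other p53 targets was 18 in the main fit, 18 to 23 with 1 pair left out and 32 with median centring. The share of all genes went up as well, from 12.1% to between 16.7% and 23.1% with 1 pair left out and to 31% with median centring. Signs turned for Sfn with median centring (0.12) and without pair 1, 2 or 3 (0.061, 0.11 and 0.053), its range with 1 pair left out being -0.32 to 0.11. They turned for Ppm1d without pair 4 (range -0.0069 to 0.13). They turned on arrays with mutant RNA in Cy5 for Sesn1 (-0.040) and Sesn2 (-0.032), and with it in Cy3 for Trp53 (0.62) and Mdm2 (-0.079). Mdm2 also turned with the median of its probes (-0.041) and without pair 4 (range -0.026 to 0.062). The causes were not tested. Centring each pair on the tested genes was chosen after seeing the data. With 4 pairs, ratios below about the spread of the pairs cannot be told from 0. A ratio above that spread is not thereby told from 0, since Ccng1 at 1.04 (SD 0.28) was not called in the main fit.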
